A study of Rattus norvegicus with 9 samples.

Results

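The 3 libraries described here, of 9 in the series, come from neonatal rat heart muscle cells that received an adenovirus carrying green fluorescent protein (Adeno-GFP), the control vector of the study. They were chosen by their label alone, and every level below is an absolute one within this group. Sarcomere transcripts stood among the most abundant of the culture, with cardiac actin (Actc1) in the highest place. Between fetal and adult isoforms the culture held mixtures, with more beta than alpha cardiac myosin. It held more adult than slow skeletal troponin I (by TPM, though not by read counts). Almost none of the adult cytochrome oxidase subunit Cox7a1 was present. Which cells carried each form was not tested. Transcripts typical of fibroblasts and of smooth muscle cells or pericytes were abundant. All 3 libraries reached 1 TPM for 7 of 11 macrophage and 5 of 11 endothelial markers, against 64.1% of all genes. Both lists had far smaller sums than the fibroblast list. Endothelial Flt1 and Esam were above 1 TPM, while Pecam1, Cdh5 and Vwf were under it, as were most lymphocyte and erythroid markers.

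The cells were primary cardiomyocytes of wild-type Sprague-Dawley rats aged 1 to 2 days, freed from the heart with pancreatic enzymes and type II collagenase. After 18 to 20 h in 10% serum and 14 h in 1% serum with 1 g/L glucose, all 3 cultures had 48 h in 33 mM glucose with 100 nM insulin, which the study uses as a model of the diabetic heart. Polyadenylated RNA was sequenced on a BGISEQ-500. The labels do not say whether the replicates are separate isolations, litters or dishes, so the spread between them may be technical. They name no step against other heart cells, and they mention GFP cells without glucose and insulin, which were not analysed here. No level below can therefore be assigned to high glucose, insulin or the virus.

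A heart muscle cell is filled with sarcomeres, in which myosin thick filaments pull on actin thin filaments once calcium binds the troponin complex, and with mitochondria that supply the energy. Around birth the rodent heart changes the members it uses in many gene families: beta gives way to alpha myosin heavy chain, slow skeletal to cardiac troponin I, and glucose to fatty acids as fuel. Cells taken at that time and kept in a dish are widely used to study growth and stress of the heart muscle, and they are seldom free of fibroblasts.

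Levels are in TPM, transcripts of a gene per 1000000 transcripts, the authors' unit, which corrects for transcript length and so allows genes to be set beside each other. The libraries held 14868180, 15368473 and 15316003 counts assigned to 18629 listed genes. Of these genes, 11937 (64.1%) reached at least 1 TPM in all 3 libraries, the level called detected below, and 1540 had 0 counts in all 3. The median over all listed genes was 5.32 TPM. At least 1000 TPM was reached in all 3 libraries by 179 genes. The table lists no mitochondrially encoded gene and no viral transgene, so shares refer to the listed nuclear genes. The GFP transgene, which would check the vector, was not analysed here. In such bulk samples, fewer cells of a type and less RNA per cell cannot be told apart.

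The promoters of the most abundant transcript and of the 4 genes that mark the cells are shown first, because these genes are the ones the description returns to most. They are from RefSeq (rat build GRCr8), written 5′ to 3′ on the gene's strand from 250 bases before to 50 bases after the annotated start. Capitals mark a match to a motif known from muscle or basal promoters: a CArG box (the site of serum response factor) in Actc1, CATTCC (the core of the M-CAT element, which TEAD factors bind) in Tnnt2 and Myh6, and TATAAA (the TATA box) in Nppa. Myh7 has no match to any motif searched. The spans are chr3:121271778-121272077 (minus strand) for Actc1, chr13:49818873-49819172 (plus) for Tnnt2, chr5:163711934-163712233 (plus) for Nppa, chr15:32411648-32411947 (minus) for Myh6 and chr15:32438145-32438444 (minus) for Myh7.
Actc1: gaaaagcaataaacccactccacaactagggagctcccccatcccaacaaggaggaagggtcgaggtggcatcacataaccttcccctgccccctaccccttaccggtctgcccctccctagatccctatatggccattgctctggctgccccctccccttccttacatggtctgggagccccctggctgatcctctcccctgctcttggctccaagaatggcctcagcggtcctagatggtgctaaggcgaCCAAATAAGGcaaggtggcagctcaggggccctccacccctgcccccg
Tnnt2: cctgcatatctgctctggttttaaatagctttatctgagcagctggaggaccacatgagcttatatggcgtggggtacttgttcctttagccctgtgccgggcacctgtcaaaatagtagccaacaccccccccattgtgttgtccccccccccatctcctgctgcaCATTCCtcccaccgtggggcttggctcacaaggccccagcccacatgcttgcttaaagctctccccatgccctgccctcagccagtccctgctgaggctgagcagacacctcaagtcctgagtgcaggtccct
Nppa: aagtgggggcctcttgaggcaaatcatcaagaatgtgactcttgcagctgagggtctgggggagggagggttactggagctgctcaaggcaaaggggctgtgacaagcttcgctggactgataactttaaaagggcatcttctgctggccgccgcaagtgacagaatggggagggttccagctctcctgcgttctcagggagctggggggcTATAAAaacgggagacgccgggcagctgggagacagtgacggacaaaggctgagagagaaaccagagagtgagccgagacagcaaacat
Myh6: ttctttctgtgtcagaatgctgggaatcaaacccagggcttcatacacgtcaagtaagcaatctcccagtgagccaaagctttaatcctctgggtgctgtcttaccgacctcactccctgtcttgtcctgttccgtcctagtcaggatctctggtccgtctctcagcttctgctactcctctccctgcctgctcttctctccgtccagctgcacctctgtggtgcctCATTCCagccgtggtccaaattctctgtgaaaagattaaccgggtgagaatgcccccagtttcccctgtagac
Myh7: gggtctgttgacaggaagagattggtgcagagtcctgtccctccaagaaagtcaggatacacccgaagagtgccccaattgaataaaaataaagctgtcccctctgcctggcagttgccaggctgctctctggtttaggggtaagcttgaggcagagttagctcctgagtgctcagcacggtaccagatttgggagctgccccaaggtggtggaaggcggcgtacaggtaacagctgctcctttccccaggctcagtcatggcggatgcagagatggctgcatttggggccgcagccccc

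The CArG box of Actc1 begins at base 3 after the start, the CATTCC of Tnnt2 83 bases and that of Myh6 23 bases before it, and the TATAAA of Nppa 39 bases before it. A promoter was found for 14019 of the listed genes, taking the first where a gene has several, as Tnnt2 does with 2. TATAAA or its reverse complement was in 8.85% of these windows and CATTCC or its reverse complement in 11.9%. The CArG box (CC, then 6 bases that are A or T, then GG) was in 1.33% and the MEF2 box, searched by its usual consensus, in 1.83%. Over all 33469 promoters of the reference, the shares were 14.2%, 14.2%, 1.64% and 3.29%. Of the 14 matched genes in the cardiomyocyte marker list of 16, 1 had TATAAA, 4 had CATTCC, 3 had a CArG box and 3 a MEF2 box. These are matches of letters in a fixed window and no measurement of binding.

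Actc1, the actin of the cardiac thin filament (NCBI gene 29275, chromosome 3, 105507397 to 105512939, plus strand, rn6 as deposited), held the first rank. It stood at 15720 TPM in replicate 1, 15732 in replicate 2 and 16772 in replicate 3 (16075 ± 604, SD, n = 3). That is far above the range of the next gene, Rps29 of the small ribosomal subunit, at 9037 to 10855 TPM. Actc1 alone held 1.61 ± 0.06% of all TPM. Below these, the order was loose: 23 of the 25 highest genes had a library range that overlapped that of the gene next below.

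Among the 25 highest, 11 were cytosolic ribosomal protein genes, from Rps29 (9887 ± 915 TPM) and Rps27 (7306 ± 586) to Rpl36 (4546 ± 125). LOC100360508 and LOC100360522, described in the table as like ribosomal proteins S26 and P1, are counted among them. Muscle genes took 6 places besides Actc1. Nppa, the precursor of atrial natriuretic peptide, a hormone that lowers blood volume, stood at 7008, 6302 and 6976 TPM. Myl3, the essential light chain of ventricular myosin, stood at 5467, 5998 and 5878 TPM, overlapping the range of Tnnt2, the cardiac troponin that anchors the complex to tropomyosin, at 5643, 5747 and 5763 TPM. Tpm1, alpha-tropomyosin, followed at 5635 ± 84 TPM, Acta2, smooth muscle actin, at 5456 ± 158 TPM, and Ankrd1, a titin-associated ankyrin repeat protein, at 4763 ± 91.7 TPM. Cox6a2, the muscle form of a cytochrome oxidase subunit, came between Tmsb4x and Nppa at 6832 ± 236 TPM. The actin-binding peptides thymosin beta 4 (Tmsb4x, 6887 ± 104 TPM) and beta 10 (Tmsb10, 6174 ± 184 TPM), the translation factor Eef1a1 (5945 ± 118 TPM), Tpt1 (5047 ± 78.6 TPM), the prolyl isomerase Ppia (5185 ± 110 TPM) and the glycolytic enzyme Gapdh (5149 ± 218 TPM) filled the other places.

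**Figure D1:**
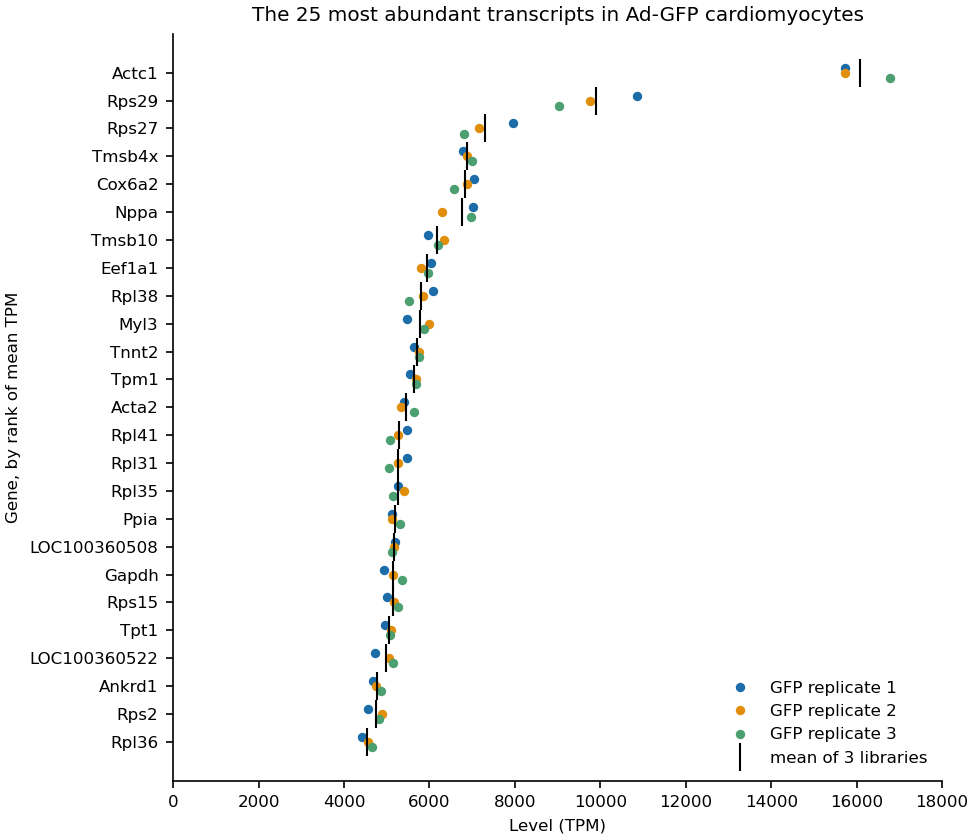
Level in TPM (x axis, linear from 0) of the 25 highest genes (y axis, in order of mean TPM) in the 3 GFP libraries; each dot is 1 library and the black tick is the mean. Actc1 lies at 15720 to 16772 TPM, apart from the rest, while most neighbours below it overlap.

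Few genes held most of the transcripts. The 100 highest held 36.9 ± 0.24% of TPM, and 198 to 204 genes per library were enough for 50%. As a group, the 167 genes annotated to the ribosome held 24.0 ± 0.43%. The 78 genes of the cardiac muscle contraction term, which includes respiratory subunits, held 8.50 ± 0.12%, and the 123 of oxidative phosphorylation 8.04 ± 0.22%. The sarcomere term (50 genes) held 3.42 ± 0.06%, and glycolysis (66 genes) 1.63 ± 0.04%. The citrate cycle (30 genes) held 0.643 ± 0.011% and fatty acid degradation (44 genes) 0.228 ± 0.003%. Extracellular matrix genes (248) held 2.49 ± 0.08%, led by Sparc, Col1a1 and Bgn.

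The order depends on the unit. Counted in reads per 1000000 assigned (CPM), which grow with transcript length, the ribosome fell to 6.17% and the extracellular matrix rose to 7.22%. Actc1 was again at the top, with 15704 ± 659 CPM, followed by Col1a1, Myh7, Eef1a1, the NEWGENE_621351 model of collagen I alpha 2, Myh6 and Fn1. Only 10 of the 25 highest genes by TPM were among the 25 highest by CPM, and the 100 highest held 24.6% of the counts. Titin (Ttn), the giant spring of the sarcomere, took rank 32 by CPM, yet rank 4092 by TPM at 30.3, 25.8 and 25.7 TPM.

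Myosin heavy chain, the motor of the thick filament, was a mixture of both cardiac forms. Myh7, the slower beta form that predominates before birth in the rodent ventricle, stood at 2327, 2153 and 2146 TPM. Myh6, the faster alpha form, stood at 1400, 1322 and 1315 TPM. Myh7 was thus higher in every library and the ranges did not overlap. Myh7 made 62.0 ± 0.25% of the family and Myh6 37.8 ± 0.26%, a ratio of 1.64 ± 0.02 (SD, n = 3). The skeletal forms were near 0, with embryonic Myh3 at 2.52 ± 0.46 TPM, Myh1 at 0.867 ± 0.087 TPM and Myh4 at 0. The deposited coordinates of Myh6 (chromosome 15, 33605653 to 33629730, minus strand, rn6) overlap the span given for Myh7 (33605654 to 33657761, plus strand), whereas RefSeq places both genes on the minus strand in GRCr8. The forms are also close paralogs and the strand of the library is not stated, so how their reads were shared out is uncertain.

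The light chains were uneven between positions. For the essential chain, ventricular Myl3 made 63.0 ± 1.47% and atrial Myl4 3.44 ± 0.17%, a ratio of 18.4 ± 0.71, with the non-muscle Myl6 at 33.2 ± 1.48%. In the regulatory family the highest member was the smooth muscle form Myl9 (41.1 ± 0.49%, 1801 ± 53.2 TPM), followed by non-muscle Myl12a (34.3 ± 0.28%). The ventricular regulatory chain Myl2 stood at 783 ± 31.8 TPM and made 17.9 ± 0.96%. It was 5.21 ± 0.78 times atrial Myl7 and 0.136 ± 0.011 times Myl3. Cardiac myosin-binding protein C (Mybpc3), which brakes the motor, made 93.4 ± 0.19% of its family.

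The thin filament was almost purely cardiac in troponin T and troponin C and mixed in troponin I. Tnnt2 made over 99% of troponin T (99.97%), and Tnnc1 stood at 4019 ± 68.8 TPM against 0.427 ± 0.273 TPM for skeletal Tnnc2. Cardiac troponin I (Tnni3), the adult inhibitory subunit, stood at 1411, 1525 and 1506 TPM. Its slow skeletal predecessor Tnni1 stood at 975, 1158 and 1099 TPM, lower in every library without overlap. Tnni3 made 57.9 ± 1.15% of the family in TPM. In CPM the order turned, with Tnni1 at 666 ± 66.2 and Tnni3 at 636 ± 35.4 CPM, whose ranges overlapped. Among actins Actc1 made 60.3 ± 0.40%, Acta2 20.5 ± 0.10%, Actb 10.8 ± 0.33% and skeletal Acta1 2.73 ± 0.04%. Actc1 was 22.1 ± 0.32 times Acta1, a paralog with nearly the same protein, so that how reads were shared out is uncertain here too. Tpm1 made 70.7 ± 0.56% of the tropomyosins, Tpm2 13.6 ± 0.34% and Tpm4 12.2 ± 0.09%. At the Z-disc, sarcomeric Actn2 (722 ± 8.75 TPM) led non-muscle Actn4 (560 ± 18.8 TPM), though not in CPM, and Myoz2 (591 ± 21.8 TPM) made 99.9% of the myozenins. At the M-band, Myom1 made 69.7 ± 0.78% and Myom2 29.9 ± 0.72%.

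**Figure D2:**
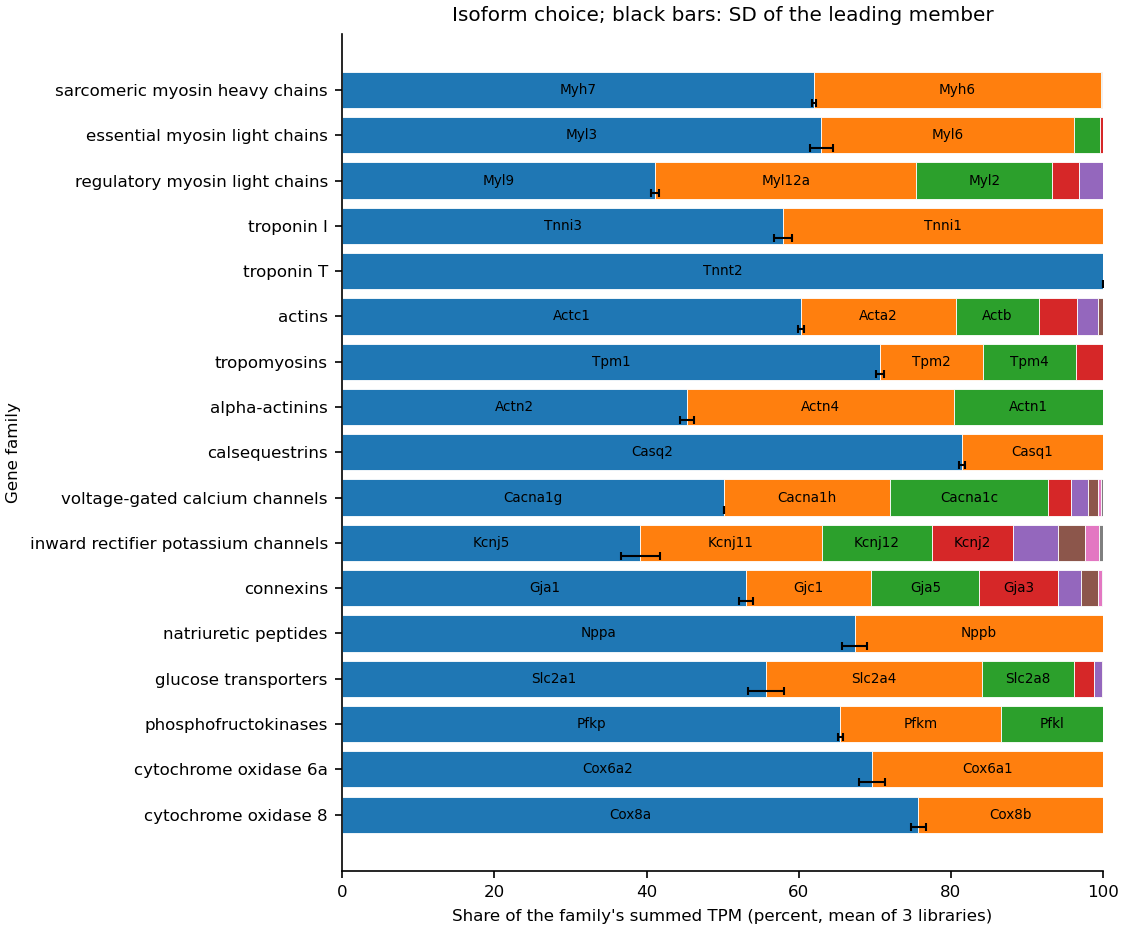
Share of each member in the summed TPM of its family (x axis, percent, mean of 3 libraries) for 17 families (y axis), with members over 7% named and the SD of the leading member as a black bar. Tnnt2 fills its family, Myh7 makes 62.0% and Tnni3 57.9% of theirs, and the regulatory light chains are led by Myl9.

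Calcium handling rested on the cardiac isoforms. The pump Atp2a2 (717 ± 8.64 TPM), which returns calcium to the sarcoplasmic reticulum, made 99.8% of its family, and Ryr2, the release channel, 97.4 ± 0.18%. Phospholamban (Pln), which restrains the pump, stood at 905 ± 28.3 TPM, 1.26 ± 0.03 times Atp2a2 and 13.6 ± 1.39 times the atrial restrainer Sln. Sln is a short transcript that rested on 40, 52 and 42 counts, and in CPM the log2 ratio of Pln to Sln was 8.94 in place of 3.76. Of the calsequestrins, which store calcium, cardiac Casq2 stood at 475 ± 5.94 TPM and skeletal Casq1 at 108 ± 4.22 TPM, a ratio of 4.39 ± 0.12. Casq1 thus made 18.5 ± 0.41% of that family. The exchanger Slc8a1 made 99.7% of its family at 112 ± 5.14 TPM.

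Among voltage-gated calcium channels the low-voltage T-type forms led. Cacna1g, a T-type channel known from the fetal heart and the pacemaker, stood at 32.62, 29.94 and 29.96 TPM, and Cacna1h, the other cardiac T-type form, at 13.4 ± 0.32 TPM. The L-type channel Cacna1c, which triggers calcium release in working muscle, stood at 12.7 ± 0.77 TPM. Cacna1g was 2.42 ± 0.02 times Cacna1c, while the ranges of Cacna1h and Cacna1c overlapped. Hcn4, the main pacemaker channel, stood at 11.8 ± 0.94 TPM, 1.79 ± 0.25 times Hcn2. Of the inward rectifiers, Kcnj5, a subunit of the acetylcholine-gated channel of atrium and node, led with 14.1 ± 1.02 TPM. Kcnj2, which holds the resting potential of ventricular cells, had 3.84 ± 0.15 TPM, below Kcnj11 (8.58 ± 0.69 TPM) and Kcnj12 (5.21 ± 0.24 TPM). Gja1, the connexin of the working heart, made 53.1 ± 0.91% of its family, with Gjc1 at 16.4 ± 0.33% and Gja5 at 14.2 ± 0.63%.

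Nppb, the precursor of B-type natriuretic peptide, stood at 3248, 3333 and 3232 TPM, and Nppa was 2.07 ± 0.15 times as high. Adrb1 made 83.9 ± 2.17% of the beta-adrenergic receptors. The alpha-1 receptors Adra1a (9.84 ± 1.56 TPM), Adra1b (9.82 ± 1.44) and Adra1d (8.72 ± 0.95) had no leading member, and without replicate 1 the log2 ratio of Adra1a to Adra1b was -0.24. Agtr1a was the angiotensin receptor detected, at 3.93 ± 0.33 TPM, with Agtr1b and Agtr2 at 0. Ednra, the endothelin A receptor, made 94.2 ± 1.15% of its family.

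The insulin receptor (Insr), the target of the hormone in the medium, stood at 6.96 ± 0.62 TPM. The IGF1 receptor (Igf1r) stood close to it at 8.76 ± 0.82 TPM. All 14 measured insulin signalling genes were detected, against 64.1% of all genes, among them Akt1 (174 ± 4.17 TPM), Akt2 (51.7 ± 1.32 TPM), Irs2 (14.8 ± 0.60 TPM) and Irs1 (3.78 ± 0.32 TPM). Of genes tied to glucose-responsive transcription, 4 of 5 were detected, led by Txnip, a brake on glucose uptake, at 92.9 ± 2.53 TPM and Mlx at 59.6 ± 1.28 TPM. The sensor Mlxip had 5.71 ± 1.01 TPM and its relative Mlxipl 0.613 ± 0.085 TPM. In lipid synthesis 10 of 11 genes were detected, including the lipid droplet coat Plin2 (107 ± 5.78 TPM), Acly (95.1 ± 6.10 TPM), Fasn (82.2 ± 4.47 TPM) and Scd (81.1 ± 2.90 TPM), but not the muscle droplet coat Plin5 (0.527 ± 0.115 TPM).

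Yap1 and Sirt1, named in the title of the study, were at moderate levels. Yap1, the Hippo pathway coactivator (chromosome 8, 6109474 to 6204240, minus strand, rn6), stood at 55.9, 54.0 and 52.5 TPM, rank 2332. Its paralog TAZ (Wwtr1) stood at 27.2 ± 1.68 TPM, and the ratio of Yap1 to Wwtr1 was 1.99 ± 0.12. On the log2 scale that ratio was 0.99 in TPM and 2.77 in CPM, which is not corrected for length. Among their DNA-binding partners Tead1 (54.5 ± 3.69 TPM) led Tead3 (41.1 ± 1.01 TPM), Tead2 (18.9 ± 1.04 TPM) and Tead4 (2.21 ± 0.40 TPM), and the log2 ratio of Tead1 to Tead3 was 0.40 in TPM and 2.43 in CPM. Sirt1, a nuclear NAD-dependent deacetylase (chromosome 20, 26831965 to 26851587, minus strand, rn6), stood at 9.06, 8.88 and 8.63 TPM, rank 7805. It made 3.74 ± 0.13% of the sirtuins. Cytosolic Sirt2 led that family with 44.6 ± 0.87%, followed by mitochondrial Sirt5 (24.8 ± 0.36%) and nuclear Sirt6 (15.7 ± 0.49%).

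Of 1187 genes annotated as transcription factors, 793 (66.8%) were detected, against 64.1% of all genes. The highest were Nme2 (1655 ± 29.8 TPM), Ybx1 (1246 ± 36.0 TPM), Tsc22d1 (778 ± 16.6 TPM) and Atf4, an effector of the integrated stress response (505 ± 8.13 TPM). The first 2 are also known for other roles, in nucleotide metabolism and in RNA binding. The cardiac homeobox factor Nkx2-5 was the tenth at 180 ± 8.80 TPM and Gata4 the nineteenth at 128 ± 4.40 TPM. Gata6 (62.3 ± 1.83 TPM), Tbx20 (57.0 ± 3.53 TPM), Srf (59.7 ± 1.45 TPM) and Mef2a (59.6 ± 2.64 TPM) lay close together, whereas Tbx5 had 6.64 ± 0.20 TPM and Hand1 3.46 ± 1.18 TPM. Ppard led the PPAR fatty acid sensors with 81.0 ± 1.13% and Esrra the estrogen-related receptors with 79.2 ± 2.07%. The factors named here outside the families were chosen after their values were seen.

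Energy metabolism mixed fetal and adult isoforms, and the pairs counted next also include myosin heavy chain, troponin I and sarcomeric actin. In 14 pairs with a known early and late form in rodent heart, the early form was higher in 8, the late in 6. In each pair all 3 libraries had the same sign. These are ratios in a bulk culture, so a mixture of cell types cannot be told apart from a mixture of forms within cells. Which cells carried each form was not tested. The widest gap was in cytochrome oxidase 7a, where Cox7a2 stood at 1043 ± 92.1 TPM and the late Cox7a1 at 0.900 ± 0.208 TPM, a log2 ratio of -10.20 ± 0.44. Among the glycolytic pairs the early form was higher, with Eno1 (1499 ± 27.6 TPM) far above Eno3 (48.9 ± 2.40 TPM). Pgam1 (562 ± 18.4 TPM) stood above Pgam2 (38.4 ± 3.96 TPM) and Hk1 (141 ± 1.83 TPM) above Hk2 (10.0 ± 0.44 TPM). The glucose transporter Slc2a1, active without insulin, stood at 48.1 ± 1.78 TPM and the insulin-responsive Slc2a4 at 24.5 ± 1.62 TPM.

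The late form was higher for Actc1 over Acta1, and also in cytochrome oxidase 6a, where Cox6a2 made 69.6 ± 1.72%. In cytochrome oxidase 8, by contrast, the late Cox8b made 24.3 ± 0.97%, so subunits of the same enzyme fell on different sides. The adenine nucleotide carrier Slc25a4, which exports ATP from mitochondria, made 69.4 ± 0.40% against Slc25a5. Cpt1b, the muscle gate for fatty acid entry into mitochondria, stood at 30.3 ± 0.62 TPM against 15.8 ± 0.92 TPM for the liver form Cpt1a. Muscle creatine kinase Ckm stood at 282 ± 17.3 TPM and the brain form Ckb at 208 ± 8.67 TPM. The mitochondrial creatine kinase of striated muscle, Ckmt2, had 14.8 ± 0.29 TPM. Outside the pairs, the platelet-type phosphofructokinase Pfkp made 65.5 ± 0.31% and the muscle form Pfkm 21.1 ± 0.49% of their family, and Ldha exceeded Ldhb 1.17 ± 0.03 times. Fabp3, the heart carrier of fatty acids, stood at 1070 ± 16.2 TPM. In CPM, 5 pairs had more of the late form, since troponin I changed sides.

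**Figure D3:**
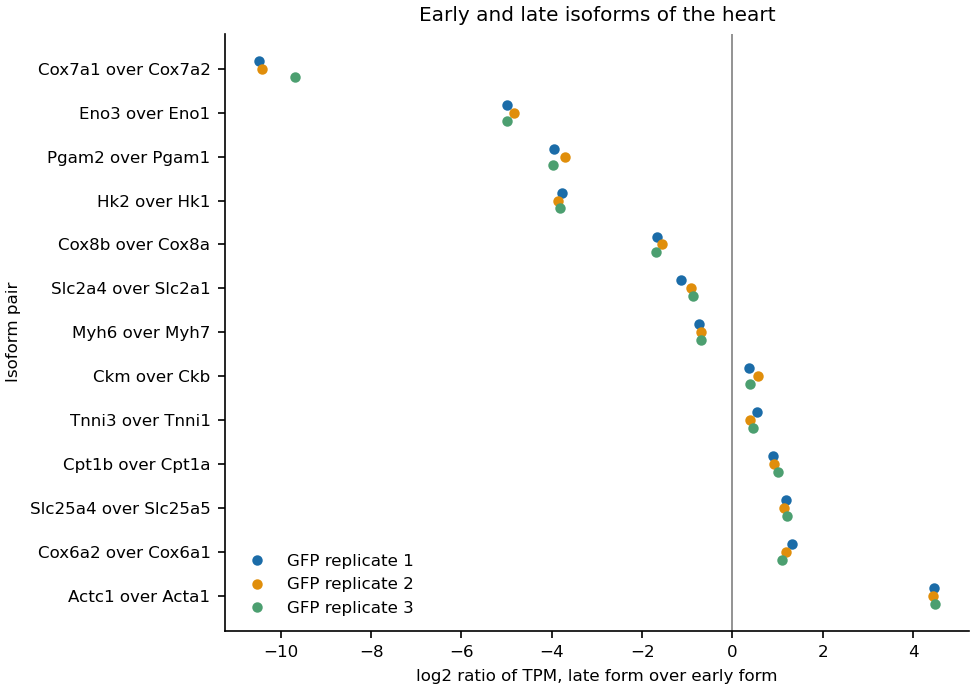
log2 ratio of TPM of the late over the early form (x axis) for the isoform pairs named in the text (y axis), 1 dot per GFP library. From Cox7a1 over Cox7a2 (-10.20 on average) to Myh6 over Myh7 the dots lie left of 0 (more of the early form), and in 6 pairs they lie right of it.

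Across all 57 families, 55 had 1 member that was highest in every library with a share range apart from that of the next. The lead held over 90% in 18 families, 50% to 90% in 31 and under 50% in 8. Of 219 measured family members, 159 were detected, against 64.1% of all genes. Shares were steady between libraries: the SD of the Cacna1g share was 0.023 percentage points and that of Myh7 0.253. The widest was Adra1a, with an SD of 6.38 points. The non-sarcomeric myosins, which also had no leading member as deposited, are taken up with the spread.

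Markers matched the label of the cells. All 16 cardiomyocyte markers were detected, against 64.1% of all genes, and summed to 44359, 44127 and 45725 TPM. The lowest were the long transcripts of Ryr2 (33.4 ± 3.58 TPM) and Ttn. All 8 ventricular markers were detected, including Irx4 (25.1 ± 1.91 TPM) and Hey2 (7.92 ± 0.46 TPM). Of 11 atrial markers 10 were detected, and Nppa made 92.2% of their sum. The atrial light chains Myl4 (315 ± 22.3 TPM) and Myl7 (152 ± 18.2 TPM), Sln (67.1 ± 9.35 TPM) and the atrial factor Nr2f2 (21.8 ± 1.62 TPM) were above the median gene, and the atrial growth factor Bmp10 (1.52 ± 0.29 TPM) was below it. Of 12 pacemaker and conduction markers 8 were detected (66.7%, near the 64.1% of all genes), led by Irx3 (24.1 ± 1.16 TPM). The nodal factors Shox2 (0.520 ± 0.348 TPM) and Isl1 (0.207 ± 0.179 TPM) were not detected.

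Connective tissue and mural cell genes were plentiful. All 12 fibroblast markers were detected, against 64.1% of all genes, with a sum of 4981, 4539 and 4621 TPM. Collagen I (Col1a1, 2722 ± 162 TPM) and collagen III (Col3a1, 1402 ± 104 TPM) made most of it. Postn (155 ± 5.04 TPM), a matrix protein of activated fibroblasts, and Tcf21 (53.3 ± 0.37 TPM), a factor of the fibroblast lineage, were well above the median gene, while the receptor Pdgfra had 4.31 ± 0.34 TPM. For smooth muscle cells and pericytes 10 of 11 markers were detected, summing to 9947, 9969 and 10360 TPM. By CPM the order of the lists turned, with 18559 for fibroblasts and 9270 for smooth muscle cells and pericytes, and with like gene models added the fibroblast sum was 6405 TPM. Acta2 and Tagln (3818 ± 92.2 TPM) made most of the TPM of the smooth muscle list, both of which immature cardiomyocytes and activated fibroblasts also express. The more restricted Myh11 stood at 34.2 ± 2.16 TPM, Pdgfrb at 133 ± 10.7 TPM and Notch3 at 22.6 ± 2.41 TPM, while the pericyte markers Rgs5 (1.57 ± 0.44 TPM) and Kcnj8 (0.653 ± 0.179 TPM) were low. All 8 epicardial and mesothelial markers were detected at low levels, from Upk3b (17.4 ± 0.79 TPM) to Wt1 (2.03 ± 0.17 TPM), with a sum of 60.0 ± 1.03 TPM.

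Vascular lining and blood cell markers had smaller sums than those of fibroblasts or smooth muscle cells. Of 11 endothelial markers 5 were detected (45.5%, against 64.1% of all genes), with a sum of 28.9 to 32.4 TPM. Flt1 (10.0 ± 1.27 TPM) and Esam (7.46 ± 0.58 TPM) led, whereas the defining Pecam1 (0.757 ± 0.101 TPM), Cdh5 (0.580 ± 0.197 TPM) and Vwf (0.077 ± 0.047 TPM) were under 1 TPM. In the lymphatic list Pdpn (84.9 ± 6.48 TPM), which fibroblasts also express, made 86.5% of the sum, and Lyve1 had 0.260 ± 0.110 TPM. Of 11 macrophage markers 7 were detected (63.6%, near the 64.1% of all genes), summing to 154, 175 and 175 TPM. Lyz2 alone made 49.6% of that sum. Lyz2 (83.2 ± 8.72 TPM), Fcer1g (31.4 ± 3.32 TPM) and Tyrobp (23.8 ± 3.08 TPM) led, while Csf1r (1.83 ± 0.34 TPM), Adgre1 (1.05 ± 0.12 TPM) and C1qb (0.277 ± 0.225 TPM) were low. Lymphocyte, mast cell or neutrophil, erythroid and adipocyte lists had 1 detected marker each, of 5, 4, 7 and 6. Cd79a of B cells, the globins Hba-a1 and Hbb, and Adipoq were at 0 in all 3 libraries. A further globin, Hba-a2, had 0.887 ± 0.291 TPM, and the detected erythroid marker was Ahsp (2.85 ± 1.09 TPM). Of 3 platelet markers 2 were detected (Pf4 at 12.2 ± 0.95 TPM). The neural list had 4 of 9 (44.4%), led by Tubb3 (26.6 ± 0.66 TPM), with Chga at 0. Over all 16 lists, 97 of 139 measured entries (152 listed) were detected, against 64.1% of all genes. Genes in more than 1 list count once in each. Nppa is in both the cardiomyocyte and atrial lists, and Myl2, Myl3 and Myh7 in both the cardiomyocyte and ventricular lists.

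**Figure D4:**
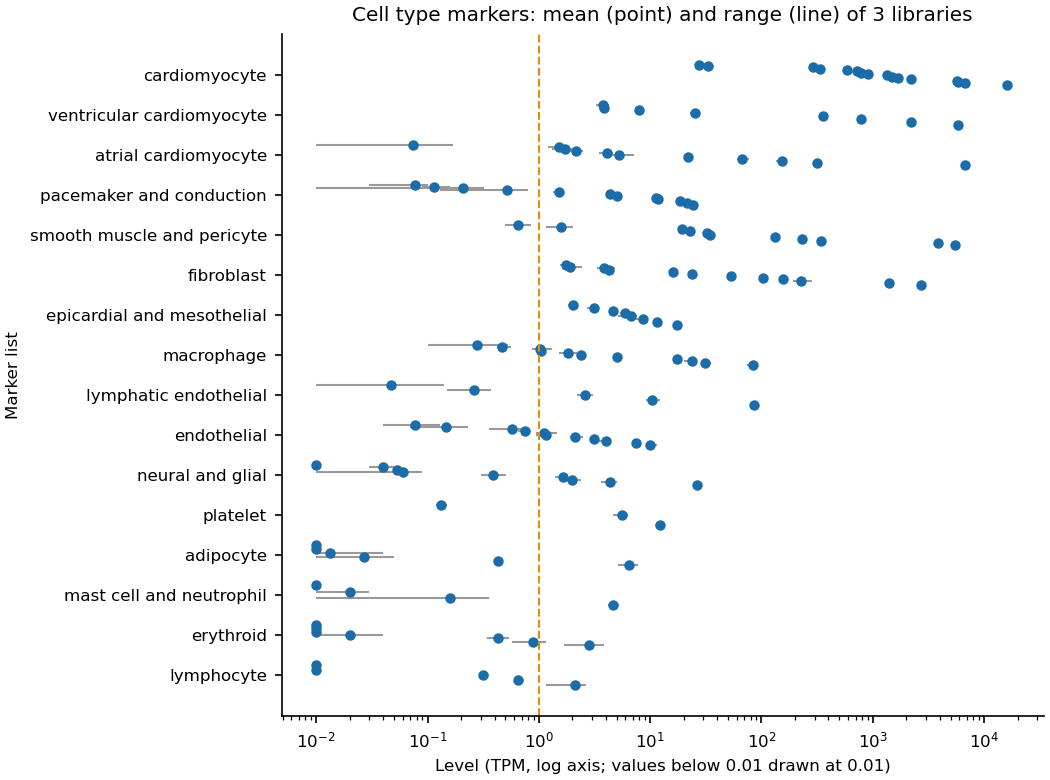
Level in TPM (x axis, log scale) of the markers of 16 cell types (y axis); each dot is the mean of 1 gene over 3 GFP libraries, the grey line its range, and the dashed line 1 TPM. Cardiomyocyte markers lie between 27.3 and 16075 TPM, fibroblast and smooth muscle lists reach over 1000 TPM, and lymphocyte, erythroid and adipocyte lists lie mostly under 1 TPM.

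Cell cycle transcripts were present: all 25 listed genes were detected, against 64.1% of all genes, with a sum of 1021 ± 24.5 TPM. The D-type cyclin Ccnd3 led at 209 ± 2.05 TPM, followed by the inhibitor Cdkn1a (114 ± 5.06 TPM) and Ccnd1 (97.1 ± 4.43 TPM). Of genes used in mitosis, Cdk1 stood at 75.8 ± 2.50 TPM, Plk1 at 28.6 ± 1.98 TPM and Mki67 at 14.4 ± 1.70 TPM. Which cells of the culture carried them was not tested. The interferon-response list, of genes that cells switch on when they sense viral nucleic acid, was mostly low: 6 of 15 genes were detected, Ifit2 (11.6 ± 0.04 TPM) among them, while Rsad2 (0.140 ± 0.036 TPM) and Mx1 (0.127 ± 0.061 TPM) were under 1 TPM and Oas2 was at 0.

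Of 1165 genes annotated to the extracellular space, 567 (48.7%) were detected, against 64.1% of all genes, and together they held 8.88 ± 0.09% of TPM. After Nppa and Tpt1, the highest were the galectin Lgals1 (3835 ± 102 TPM), the matricellular protein Sparc (3336 ± 7.71 TPM), Nppb and Col1a1. Further down stood the proteoglycan biglycan (Bgn, 1941 ± 50.6 TPM), connective tissue growth factor (Ccn2, 1679 ± 46.2 TPM) and the calcification inhibitor Mgp (1101 ± 84.4 TPM). These were chosen after their values were seen.

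The 3 libraries were alike, with a Pearson correlation of 0.994 for each pair on the log scale (13235 genes, which are not independent). The biological coefficient of variation, edgeR's estimate of spread beyond counting, was 4.81%. In a chi-square test of each gene's counts against counting noise (2 degrees of freedom, Benjamini-Hochberg adjusted p under 0.05), 1370 of 13235 genes (10.4%) varied more than counting allows. The share rose with depth, from 3.68% of genes with a mean of 10 to 30 counts to 78% of those with at least 10000. Their median coefficients of variation (CV) were 22.5% and 3.20%. Genes with many counts thus had small CVs and still passed the test most often.

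Replicate 1 stood apart. It was the farthest from the other 2 in 794 (58.0%) of the 1370 genes. Without it, 337 genes were called and the biological coefficient of variation was 3.58%, against 1158 genes and 5.77% without replicate 2 and 972 genes and 4.92% without replicate 3. The deviation moved with transcript length. Over 7366 genes, the median log2 ratio of replicate 1 to the other 2 was -0.07 in the shortest and 0.09 in the longest of 5 equal length classes. With scaling within 20 bins of transcript length, an alternative chosen after seeing the data, 822 genes were called. Among long transcripts, Fn1, fibronectin of the matrix, stood in replicate 1 at 1050 TPM against 892 and 895 in the others. What share of the spread this trend holds beyond those counts was not tested.

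**Figure D5:**
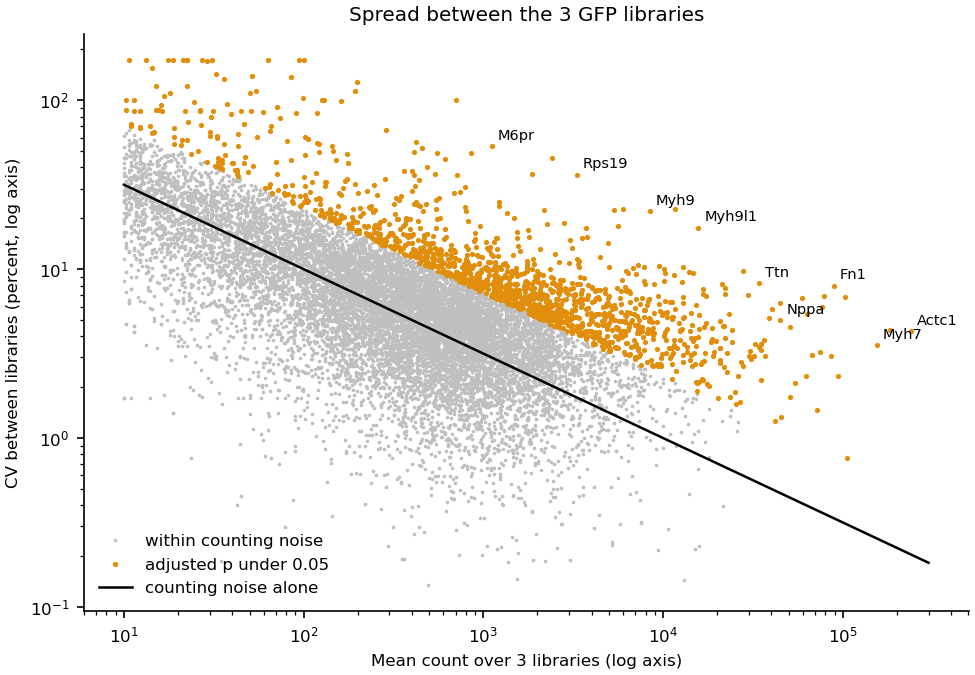
CV between the 3 GFP libraries (y axis, percent, log scale) against mean count (x axis, log scale), 1 dot per gene with at least 10 counts on average. The line is the CV of counting noise alone, and the 1370 orange genes lie beyond it with adjusted p under 0.05 in the chi-square test.

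Several of the widest spreads lay in genes with a near-identical neighbour in the table. Rps19 stood at 686, 1411 and 1391 TPM (CV 35.5%) and the model named Rps19l2 at 2146, 1540 and 1371 TPM. Their sum had a CV of 3.35%. The receptor M6pr stood at 62.3, 58.1 and 17.5 TPM and its like model LOC100909548 at 11.9, 12.1 and 62.0 TPM, with a CV of 53.8% for M6pr and of 6.25% for the sum. For Myh9, a non-muscle myosin, the CV was 21.9% against 7.12% for the sum with Myh9l1. As deposited, Myh10 (122 ± 9.79 TPM) and Myh9 (99.8 ± 21.9 TPM) overlapped, but with Myh9l1 added Myh9 made 63.2 ± 0.17% of that family and Myh10 27.5 ± 0.27%. Collagen I alpha 2 was split between Col1a2 (228 ± 48.9 TPM) and NEWGENE_621351 (1691 ± 142 TPM), whose sum was 1919 ± 110 TPM. Col1a2 alone made 10.2% to 15.4% of that sum per library. The sum was not steadier in every pair: Actg1, a cytoplasmic actin, had a CV of 0.845% alone and of 1.26% with LOC100361457 added. The 8 pairs of models, of which 5 are named here, were picked after their values were seen.

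By rule, the 10 widest genes among those called at 20 TPM or more were Rps18l1, M6pr, Capns1, Rab1b, Chchd2, Brms1, Kansl2, Rps19, Psmd14 and Surf2. Rps18l1 had 301 counts in replicate 1 and 0 in the other 2 (chi-square adjusted p = 1.93e-132). Expected counts are estimates, and how reads were shared out between Rps18l1 and like genes was not tested. Chchd2, a mitochondrial regulator, stood at 67.0, 125 and 176 TPM, and the calpain subunit Capns1 at 8.82, 30.4 and 28.6 TPM. Rab1b, a vesicle traffic GTPase, stood at 29.9, 9.33 and 32.0 TPM, low in replicate 2. None of the markers of the culture was among them. Of 16 cardiomyocyte markers, 12 varied beyond counting noise, with a median CV of 3.91%, and of 8 epicardial markers none did (median CV 8.65%). The share over all tested genes was 10.4%, but it was 45.5% at a mean of 3000 to 10000 counts and 78% above.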

How the data were processed

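Messenger RNA of 3 Adeno-GFP libraries was analysed. The submitters' processing notes name HISAT2, Bowtie2, RSEM 1.3.1, DESeq2 1.4.5 and build rn6, without the role of each. The deposited expected counts carry no normalization by the authors, and 89.4% to 89.5% of them are whole numbers. The deposited TPM values were scaled by the authors within each library and sum to 1000000. The other 21 per-library value columns were not used, nor was a table that repeats 36 columns. The 5 symbols on several lines were read at their first line.

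Levels, ranks and shares come from the deposited TPM, with SD over 3 libraries. Expected counts were rounded to whole numbers for the spread, with TMM scaling in edgeR 4.0.16 (R 4.3.3), an intercept-only design, and a mean count of at least 10 for the chi-square test. CPM are counts per 1000000 listed counts. No p is given between genes: a sign-flip test over 3 libraries cannot go below 0.25. On simulated libraries of 18629 genes, 86% of 200 genes given a 30% spread were called, with 3 false calls. Those 200 were drawn from genes with a mean of at least 200 counts, and all other genes had counting noise alone. How this test performs at lower counts, or with a length trend or split gene models, was not simulated. Named were the 25 highest genes, family members with at least 10% of their family, both members of each early and late pair, the 3 highest of each marker list, markers whose absence bears on a cell type, and the 10 widest genes at 20 TPM or more. Provisional symbols were left out except among the 25 highest. Members and lists were chosen with earlier results of these data known. Alternatives were CPM, other thresholds, scalings and pseudocounts, and each library left out. Sums of like gene models and length bins were added after seeing the data. Some members of the families and lists are counted but not reported here by name.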

Additional observations from a re-analysis of the deposited data

How the results depend on the processing

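By CPM in place of TPM, 10 of the 25 highest genes stayed in the list and the 100 highest held 24.6% in place of 36.9%. With ribosomal protein genes left out of the total they held 33.5%. The log2 ratio of Tnni3 over Tnni1 turned to -0.062 and that of Actn2 over Actn4 to -0.015 by CPM, and that of Myh10 over Myh9 to -1.20 with like gene models summed. That of Adra1a over Adra1b ran from -0.24 (without replicate 1) to 0.13 as each library was left out. As each library was left out, 337 to 1158 genes varied beyond counting noise, and the biological coefficient of variation was 3.58% to 5.77%. Pairs of libraries also have fewer degrees of freedom. Scaling within length bins gave 822 genes. Over the summary values, 40 of 46 recomputed values stayed within the limits set (1.5 times a count, 1 SD of a level). Over single families, pairs and lists, 262 did, 48 moved and 4 changed direction. For the biological coefficient of variation, the limit was the SD of its own 3 values with each library left out. Leaving out 1 of 3 libraries shifts the mean of a ratio or list sum by less than 1 SD. Such a value could therefore change direction but not count as moved. Values without a second gene model were also bound to stay the same when like models were summed. For those settings the 262 are no measure of robustness. The same nearly holds for the share of the 100 highest genes as each library was left out, which counts among the 40. The number of led families, 55 of 57, could not rise by 1.5 times. The 40 of 46 were thus in part fixed in advance. Of 57 ratios between 2 genes, 16 moved by over 1.5 times in fold by CPM, which is not corrected for length. By CPM the log2 ratio of Pln over Sln was 8.94 in place of 3.76, that of Yap1 over Wwtr1 2.77 in place of 0.99, and that of Tead1 over Tead3 2.43 in place of 0.40. No paired analysis was possible because a single group is described. Depth limits genes of low count: at 10 to 30 counts the median CV was 22.5%.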

Other observations

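Y-linked transcripts were present in all 3 libraries. Of 15 listed Y-linked genes, 3 had a mean of at least 1 TPM. Of these, Kdm5d (0.99, 0.89 and 1.24 TPM) was not at 1 TPM in all 3 libraries. Only Eif2s3y and Ddx3 were detected by that rule, against 64.1% of all genes. The Y-linked sum was 12.2, 11.1 and 12.3 TPM. Eif2s3y, a translation factor, stood at 5.89, 5.70 and 6.18 TPM, 0.079 ± 0.003 times its X-linked partner Eif2s3. The helicase Ddx3 of chromosome Y stood at 3.55, 3.19 and 2.98 TPM, 0.031 ± 0.001 times Ddx3x. The levels overlapped between libraries or lay close together, and the labels do not give the sex of the animals. The partners are paralogs, so how their reads were shared out is uncertain.

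The proteasome term (44 genes, 43 detected) held 0.681 ± 0.004% of TPM and the spliceosome term (135 genes, 132 detected) 1.03 ± 0.01%. Of all genes 64.1% were detected. The ribosome term lay between 23.6% and 24.4%.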
